A study of Mus musculus with 4 samples.

Results

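The cells described here were dividing inhibitory neuron progenitors of the mouse telencephalon, 679 of the 17623 cells that passed the filters in 4 single-cell RNA libraries and of 27742 deposited barcodes. A barcode was kept if it held 2000 to 40000 UMIs (unique molecular identifiers, tags that mark each captured transcript molecule), at least 1000 genes and at most 10% mitochondrial UMIs. A kept cell was a member if *Dlx1* and *Dlx2* together had at least 3 UMIs and *Mki67* and *Top2a* together had at least 3, with none of *Pdgfra*, *Neurod2* or *Neurod6*. These measured counts chose the members, so the levels of the 7 genes of the rule are given as a description and take no test. The members numbered 292 in control replicate 1, 267 in mutant replicate 1, 75 in control replicate 2 and 45 in mutant replicate 2.

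The study asked how a midfetal mutation of *Chd8*, the gene of a chromatin remodeler, changes the cells that descend from the progenitors in which it was induced. All mice were C57BL/6, carried the NestinCreERT2 transgene and a tdTomato reporter, and were exposed to tamoxifen given to the pregnant mother at the midfetal stage, then delivered by cesarean section and fostered. Tamoxifen activates a Cre recombinase made in *Nestin*-expressing neural progenitors, which switches on tdTomato in those cells and their progeny. Control libraries came from NestinCreERT2/tdTomato/Chd8+/+ mice and mutant libraries from NestinCreERT2/tdTomato/Chd8+/F mice, in which Cre also removes the floxed part of 1 *Chd8* allele. Live tdTomato-positive cells were sorted at P5 from cortex and striatum, to leave out cells whose progenitors did not recombine. Macrophage-like cells rich in *C1q* genes were still present in the libraries. There were 2 libraries per genotype, each pooled from 3 mice, and the library was the replicate. Pooling hid how mice differed, and the p-values below measure the spread between these libraries.

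Inhibitory neurons of the forebrain arise from ventral progenitors of the ganglionic eminences and, around birth, from their remnant, the subventricular zone along the lateral ventricle. There, radial glia and neural stem cells give rise to transit-amplifying cells that express *Egfr*, divide and pass into *Dcx*-expressing neuroblasts. The homeobox genes *Dlx1* and *Dlx2* are expressed across this path and drive inhibitory identity, *Mki67* encodes the proliferation antigen Ki-67, and *Top2a* encodes the topoisomerase that untangles DNA before chromosomes separate.

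The deposited matrices held 79328841 UMIs in control replicate 1, 78211984 in mutant replicate 1, 46274374 in control replicate 2 and 50616343 in mutant replicate 2. The filters kept 79.1%, 79.3%, 48.7% and 45.1% of the barcodes in that order, so the libraries of replicate 2 stood apart from those of replicate 1. Summed over the members, the depth was 5206746 UMIs in control replicate 1, 4530973 in mutant replicate 1, 1027845 in control replicate 2 and 678440 in mutant replicate 2. The headers of the matrices named Cell Ranger 7.0.0 for replicate 1 and 5.0.1 for replicate 2. *Xist*, the RNA of the inactive X chromosome, was at 0 and 0.221 CPM (UMIs of a gene per 1000000 UMIs) in the members of control and mutant replicate 1 and at 2361 and 2069 CPM in those of replicate 2, although male mice are stated. *Nrxn3*, which encodes a synaptic adhesion protein, was at 9386 and 8914 CPM in the members of control and mutant replicate 1 and at 646 and 752 CPM in those of replicate 2. *Auts2* was at 2124 and 1901 against 385 and 407 CPM, and *Gphn* at 450.0 and 388 against 32.1 and 16.2 CPM, in the same order. Software version and replicate cannot be told apart, and both genotypes had 1 library of either version.

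The members held more UMIs per cell than non-dividing cells of the same lineage. Their median UMI count was 16979 in control replicate 1, 16142 in mutant replicate 1, 12276 in control replicate 2 and 14402 in mutant replicate 2. Cells with the same *Dlx* count but no *Mki67* or *Top2a* UMI, called resting Dlx cells below (1954 cells), had medians of 7468.5, 7164, 5436.5 and 6145 UMIs in that order. The median mitochondrial share of the members was 1.76% and 2.07% in control and mutant replicate 1 and 4.21% and 3.23% in replicate 2. No member barcode was shared between libraries. A doublet caller marked 12 and 14 members of control and mutant replicate 1 (4.11% and 5.24%, against 2.42% and 2.79% of all kept cells) and none in replicate 2, where it marked 0.202% of the control and 0.640% of the mutant cells and so cannot be relied on. These cells were kept.

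Of the rule genes, *Dlx1* (mm10 chr2:71528113-71533981, + strand) was at 519 and 498 CPM in the members of control and mutant replicate 1 and at 691 and 684 CPM in those of replicate 2, and *Dlx2* (chr2:71543408-71546754, - strand) at 576, 677, 433 and 532 CPM in the same order. *Mki67* (chr7:135689784-135716361, - strand) was at 328 and 306 CPM in replicate 1 and at 1162 and 672 CPM in replicate 2. *Top2a* (chr11:98992943-99024189, - strand) was at 899, 899, 1563 and 1334 CPM. Both division genes were higher in the libraries of replicate 2.

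Of the members, 8, 7, 6 and 3 held exactly 3 *Dlx1* and *Dlx2* UMIs in control replicate 1, mutant replicate 1, control replicate 2 and mutant replicate 2, and 19, 15, 6 and 1 cells just missed the rule with 2. For *Mki67* and *Top2a*, 16, 22, 1 and 3 members held exactly 3 UMIs, and 15, 14, 4 and 4 cells just missed with 2, while 61, 53, 35 and 25 held 1. The median member of the 4 libraries held 18, 18, 12 and 13 *Dlx* UMIs and 18, 17, 28 and 21 *Mki67* and *Top2a* UMIs. A *Pdgfra* UMI removed 65, 78, 17 and 17 cells that met the other counts, and a *Neurod2* or *Neurod6* UMI removed 23, 7, 1 and 0.

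The label was checked on genes that the rule did not use. *Dlx5* and *Dlx6*, the neighbouring pair of *Dlx* genes, and *Sp9* and *Sp8*, transcription factors of inhibitory progenitors, were present in all 4 libraries. *Sp8* was at 134 and 152 CPM in the members of control and mutant replicate 1 and at 128 and 190 CPM in those of replicate 2. *Sp9* was found in 73.6%, 77.2%, 61.3% and 76.7% of members after each cell was thinned to 5000 UMIs (control replicate 1, mutant replicate 1, control replicate 2, mutant replicate 2). In macrophage-like cells rich in *C1q* genes, which should lack *Sp9*, the same shares were 2.6%, 3.2%, 0% and 0% (194, 62, 29 and 32 cells). The share of members with *Sp9* was thus above the level of free RNA in each library. *Nkx2-1* and *Lhx6*, which mark the medial ganglionic eminence and its interneurons, had means of 5.26 ± 4.21 and 2.35 ± 2.51 CPM (SD, n = 4 libraries), near 0.

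Markers of other cell types differed between libraries in the members, and those of astrocytes were not low in replicate 2. The summed level of the 10 astrocyte markers was 368 and 305 CPM in control and mutant replicate 1 and 1028 and 1101 CPM in replicate 2, led by *Slc1a2* in replicate 1 and *Sparcl1* in replicate 2, with *Gjb6* at 0 in 3 libraries. In resting Dlx cells the same sum was higher, at 902 and 716 CPM in control and mutant replicate 1 and 2059 and 1659 CPM in replicate 2. The 12 oligodendrocyte lineage markers summed to 98.7 and 147 CPM in control and mutant replicate 1 and to 107 and 152 CPM in replicate 2, led by *Olig1*, with *Pdgfra* at 0 by the rule. The 9 microglia and macrophage markers summed to 130 CPM in control replicate 1 and to 9.27, 2.92 and 8.84 CPM in the other libraries (mutant replicate 1, control replicate 2, mutant replicate 2). The 7 ependymal and choroid plexus markers were highest in mutant replicate 2 at 301 CPM, of which *Foxj1* gave 156 CPM, against 134, 86.5 and 79.8 CPM in control replicate 1, mutant replicate 1 and control replicate 2. The 10 excitatory lineage markers summed to 122 and 108 CPM in control and mutant replicate 1 and to 97.3 and 171 CPM in replicate 2. Most of each sum was *Bcl11b*, at 110, 97.1, 88.5 and 167 CPM in that order. In resting Dlx cells *Bcl11b* was higher, at 159, 160, 210 and 270 CPM. The 9 vascular and meningeal markers summed to 10.8, 33.3, 19.5 and 25.1 CPM in the same order. The part of these cells in the results below was not tested.

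The cell cycle program of the members was read from 43 S-phase genes and 52 G2/M genes, lists without *Mki67* and *Top2a*. S-phase genes are switched on by E2F factors when a cell commits to copying its DNA, and many G2/M genes are held off until later through a CHR element next to CCAAT boxes in their promoters. *Cdca7* and *Pola1* (the catalytic subunit of DNA polymerase alpha) are shown as the most abundant S-phase genes whose promoters hold an E2F match. *Hmgb2*, a chromatin protein, and *Ube2c*, an enzyme that marks mitotic cyclins for destruction, are shown as the most abundant G2/M genes whose promoters hold a CHR match, at 3990.8 and 788.4 CPM (mean of 4 libraries). The sequences are the 250 bases before the RefSeq start in GRCm38.p6, on the strand of the gene, at chr2:72475969-72476218 (+) for *Cdca7*, chrX:93632156-93632405 (-) for *Pola1*, chr8:57511593-57511842 (+) for *Hmgb2* and chr2:164769679-164769928 (+) for *Ube2c*. Capitals mark the E2F letters TTTCCCGC or TTTGGCGC in the first pair and the CHR letters TTTGAA and the CCAAT box in the second pair, on either strand.
Cdca7: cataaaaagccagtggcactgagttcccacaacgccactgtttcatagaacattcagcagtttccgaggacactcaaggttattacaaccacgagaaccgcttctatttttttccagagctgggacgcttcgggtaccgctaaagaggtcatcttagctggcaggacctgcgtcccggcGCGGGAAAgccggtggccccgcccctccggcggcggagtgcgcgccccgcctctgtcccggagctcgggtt
Pola1: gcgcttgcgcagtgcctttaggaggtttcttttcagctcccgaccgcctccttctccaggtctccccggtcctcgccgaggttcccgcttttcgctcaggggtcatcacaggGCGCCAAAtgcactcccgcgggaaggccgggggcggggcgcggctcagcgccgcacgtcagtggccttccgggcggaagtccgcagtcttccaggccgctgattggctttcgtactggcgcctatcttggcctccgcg
Hmgb2: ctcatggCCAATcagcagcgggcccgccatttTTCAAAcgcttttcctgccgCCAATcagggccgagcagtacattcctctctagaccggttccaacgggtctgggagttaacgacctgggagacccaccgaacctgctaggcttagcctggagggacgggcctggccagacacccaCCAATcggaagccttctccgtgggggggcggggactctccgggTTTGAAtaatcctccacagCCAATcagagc
Ube2c: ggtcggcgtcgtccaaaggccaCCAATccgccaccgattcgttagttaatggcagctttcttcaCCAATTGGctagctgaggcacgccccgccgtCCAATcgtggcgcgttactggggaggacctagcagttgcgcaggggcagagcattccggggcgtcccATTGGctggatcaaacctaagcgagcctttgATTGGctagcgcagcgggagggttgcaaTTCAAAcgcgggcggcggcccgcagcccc

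In these windows, 8 of the 31 S-phase genes with a RefSeq promoter held one of the E2F letters (25.8%), against 1 of 45 G2/M genes (2.22%) and 366 of all 27025 promoters (1.35%). The CHR letters stood in 17 of 45 G2/M promoters (37.8%), 5 of 31 S-phase promoters (16.1%) and 16.3% of all promoters. The CCAAT box stood in 34 of 45 G2/M promoters (75.6%), 22 of 31 S-phase promoters (71.0%) and 34.5% of all. A match describes the letters alone, and 12 S-phase and 7 G2/M genes had no promoter in the table.

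Against resting Dlx cells, the S-phase and G2/M genes were higher in the members, which is given without a test because the groups were split on *Mki67* and *Top2a* of the same cells. All 43 S-phase genes were higher in each of the 4 libraries, by a median of 5.51-fold. Of the 52 G2/M genes, 51 were higher in each library, by a median of 31.8-fold. The S-phase genes with the highest levels were *Nasp*, a histone chaperone, at 729.8 CPM, *Rrm2*, a subunit of the enzyme that makes deoxynucleotides, at 504.8 CPM, and *Pcna*, the sliding clamp of DNA polymerase, at 496.8 CPM (means of the 4 libraries). Genes with the largest rise by the rule for named genes were also of the cell cycle, led by the replication-dependent histone genes *Hist1h2af* and *Hist1h3c*, whose near-identical copies may share reads, and *Esco2*, which holds sister chromatids together. *Esco2* was at 123, 119, 234 and 181 CPM in the members of control replicate 1, mutant replicate 1, control replicate 2 and mutant replicate 2, against at most 2.56 CPM in resting cells.

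In members thinned to 5000 UMIs, the median cell held 25 S-phase and 73 G2/M UMIs in control replicate 1, and 27 and 73 in mutant replicate 1. In replicate 2 the medians were 36 and 88 in the control library and 33 and 79 in the mutant library. The resting cells of the 4 libraries held medians of 4 to 5 S-phase and 10 to 13 G2/M UMIs. Members with more S-phase than G2/M UMIs made up 19.4% (56 of 288), 19.8% (52 of 263), 17.3% (13 of 75) and 14.0% (6 of 43) in control replicate 1, mutant replicate 1, control replicate 2 and mutant replicate 2. Few cells sat at the dividing line, 5, 10, 0 and 2 being within 2 UMIs of equality. The shares are those of cells chosen by *Mki67* and *Top2a*, 2 genes that peak in G2/M.

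**Figure D1:**
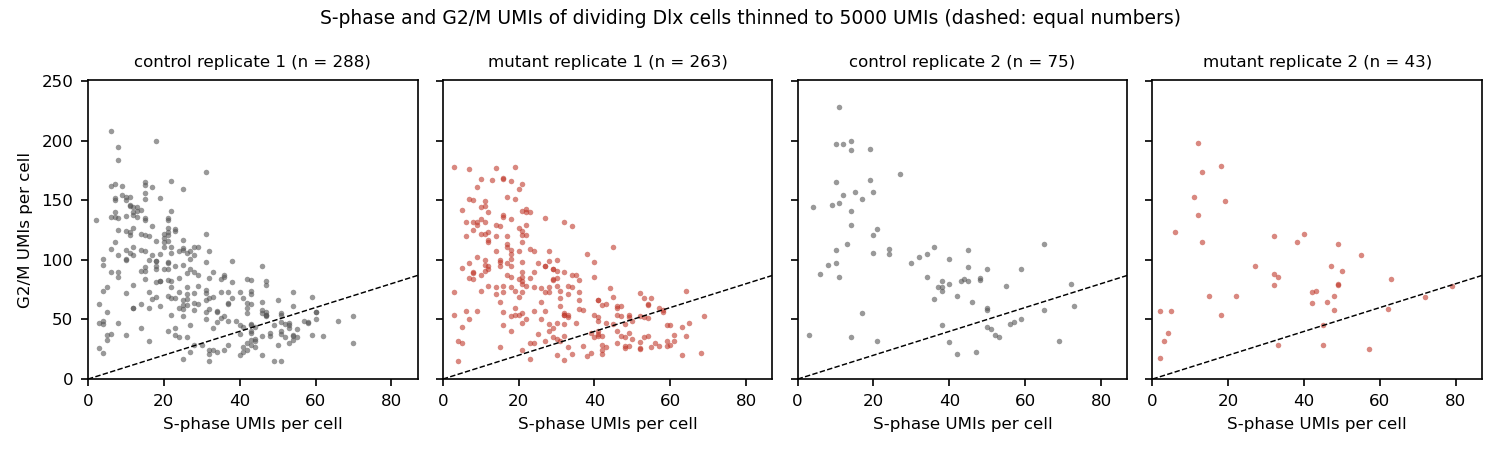
S-phase UMIs (x axis) and G2/M UMIs (y axis) of each dividing Dlx cell after thinning to 5000 UMIs, 1 panel per library, with a dashed line at equal numbers. Most cells lie above the line in each library, and 19.4%, 19.8%, 17.3% and 14.0% lie below it in the order of the panels.

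The comparison with resting Dlx cells asked what else set the dividing cells of this lineage apart. The members held more RNA of transit-amplifying genes and less of neuroblast, neuron and GABA genes. *Insm1*, a zinc-finger factor of progenitors committed to neurogenesis, was at 374, 338, 233 and 318 CPM in the members of control replicate 1, mutant replicate 1, control replicate 2 and mutant replicate 2, against 86.7, 84.9, 48.5 and 64.0 CPM in resting cells. The members were higher in each library and the ranges did not overlap, with a log2 difference of 2.08 ± 0.0825 (SE, adjusted p = 5.59e-11, edgeR). Of 11680 genes tested, 56.0% differed, 24.5% being higher and 31.5% lower in the members, and the median log2 difference of all genes was -0.09.

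Of 15 transit-amplifying genes, 11 rose in the members and 1 fell, with a median log2 difference of 0.96. *Egfr*, the receptor through which EGF keeps transit-amplifying cells dividing, was at 191, 115, 125 and 51.6 CPM in the members of control replicate 1, mutant replicate 1, control replicate 2 and mutant replicate 2, against 59.3, 45.8, 27.6 and 46.9 CPM (1.42 ± 0.151, adjusted p = 1.93e-06). Its excess was small in mutant replicate 2 and more than 2-fold in the other libraries. The Notch ligand genes *Dll1* and *Dll3* rose by 1.51 and 1.09 on the log2 scale, the receptor gene *Notch1* by 1.26, and the gene that fell was *Mfng*, a modifier of Notch receptors, at -0.45. *Hes5*, a target of Notch, passed the test (0.53) but was higher in 3 of 4 libraries.

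Neuroblast and neuron genes went the other way, with 18 of 20 lower, each in all 4 libraries, and a median log2 difference of -0.92. *Dcx*, whose protein binds microtubules in migrating neuroblasts, was at 427, 460, 417 and 538 CPM in the members against 1130, 1126, 1396 and 1477 CPM in resting cells of control replicate 1, mutant replicate 1, control replicate 2 and mutant replicate 2 (-1.47 ± 0.0624, adjusted p = 1.03e-10). It was lower but far from absent, found in 72.0% to 79.5% of thinned members per library, against 0% to 8.8% of the *C1q*-rich cells. *Prokr2*, the receptor that guides neuroblasts towards the olfactory bulb, was at 4.42, 5.96, 0 and 5.90 CPM against 129, 148, 164 and 235 CPM (-4.84 ± 0.172, adjusted p = 1.84e-11). That drop was the second steepest among the named genes, after *Epha6*, an ephrin receptor gene (-5.05). The maternally expressed RNA *Meg3* (-3.54), the neurofilament gene *Ina* (-2.97) and the potassium channel partner *Kcnip1* (-2.98) were also among the genes with the largest fall. Of the list, the synaptic vesicle gene *Syt1* (-2.91) and the axon guidance receptor gene *Robo2* (-1.90) fell further than *Dcx*. *Sox11*, a factor of immature neurons, differed by -0.04 (adjusted p = 0.537). *Elavl4*, an RNA-binding protein gene of neurons, was the one member of the list that rose (0.58).

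The genes of GABA synthesis and transport were lower in the members, 5 of 5 past the test with a median of -1.03. *Gad1*, a GABA-synthesizing enzyme gene, was at 121, 135, 53.5 and 53.1 CPM in the members against 350, 343, 194 and 184 CPM in resting cells (-1.56 ± 0.0805, adjusted p = 8.71e-10). *Gad2*, which encodes the other such enzyme, and *Slc32a1*, the vesicular GABA transporter, also fell (-1.03 and -1.09 on the log2 scale). *Gad2* was still found in 73.6%, 69.2%, 64.0% and 48.8% of thinned members against at most 5.7% of the *C1q*-rich cells.

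The transcription factors of ventral progenitors split, with 5 of 19 higher (a share close to the 24.5% of all genes) and 10 lower. *Gsx2*, which acts early in the lateral ganglionic eminence, was at 47.8, 50.8, 17.5 and 22.1 CPM in the members against 9.79, 3.52, 1.67 and 1.71 CPM in resting cells (2.77 ± 0.238, adjusted p = 2.07e-07). *Meis2*, *Pbx3* and *Tshz1*, which are kept in maturing neurons of this lineage, fell (-1.32, -2.02 and -1.91 on the log2 scale). *Sp8*, *Sp9* and *Dlx5* fell less (-0.80, -0.33 and -0.37), while *Dlx6* (0.13, adjusted p = 0.309) did not pass the test. Of 13 genes of the medial and caudal eminences 1 rose, *Sox6* (0.80), and 6 fell, among them *Htr3a* (-2.80), a serotonin receptor of caudal interneurons, and *Calb2* (-1.88). Of 15 neural stem cell and radial glia genes 5 rose, *Sox2* among them (0.42), and 6 fell.

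Of the E proteins, the partners of tissue-restricted helix-loop-helix factors, and the Id genes, their inhibitors, *Tcf3* rose (1.04), and *Id2* and *Id3* were among 4 of 7 that fell (-0.95 and -1.05). Of 7 genes of the p53 response 2 rose and 2 fell, shares near the 24.5% and 31.5% of all genes. Of 9 astrocyte markers 8 were lower in the members, with a median of -1.27. *Chd8* was slightly lower in the members than in resting cells, at -0.32 (adjusted p = 0.0054). *Auts2*, *Nrxn3* and *Gphn*, genes linked to inhibitory neurons that the study singled out in these libraries, fell with *Gad1* (-0.99, -0.77 and -0.36). All these values are shares of UMIs, and the members held more than 2-fold as many UMIs per cell.

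**Figure D2:**
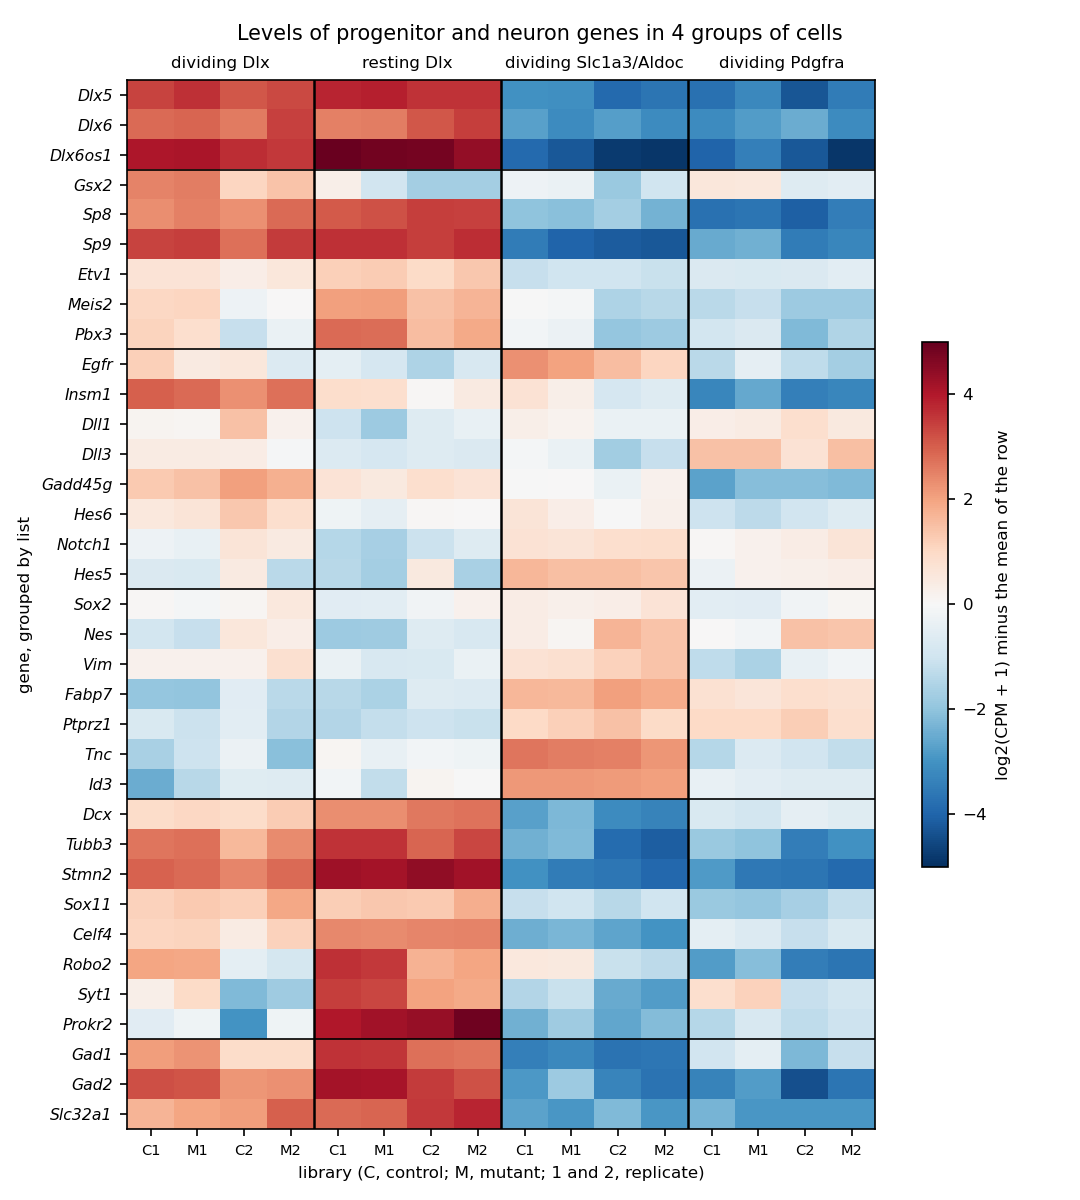
Levels of 35 genes, grouped by list, in 4 groups of cells and 4 libraries (C, control; M, mutant; 1 and 2, replicate), as log2(CPM + 1) minus the mean of the row, from blue (below the mean) to red (above). Dividing Dlx cells share *Dlx5*, *Sp9* and *Gad2* with resting Dlx cells, and *Dcx* and *Prokr2* are lower in them than in resting Dlx cells.

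The members divided beside 2 other kinds of tdTomato-positive cells, and the next question was what they shared with these. Dividing Slc1a3/Aldoc cells, astrocyte-like progenitors, had the same *Mki67* and *Top2a* count, at least 3 UMIs of *Slc1a3* and *Aldoc* and none of *Dlx1* or *Dlx2* (1132 cells). Dividing Pdgfra cells, oligodendrocyte precursors by that marker, had at least 3 *Pdgfra* UMIs in place of these (654 cells). The genes of either rule were not tested. Of 13179 genes tested against the Slc1a3/Aldoc cells 53.5% differed, 25.0% being higher and 28.5% lower in the members. Of 11577 genes tested against the Pdgfra cells 55.2% differed, 26.6% being higher and 28.5% lower. The median log2 differences were -0.02 and 0.00 over all genes.

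The members held more RNA of *Sp9* and of the *Dlx* family than both other groups. *Sp9* was at 387, 409, 247 and 416 CPM in the members of control replicate 1, mutant replicate 1, control replicate 2 and mutant replicate 2, at 0.950 to 2.25 CPM in Slc1a3/Aldoc cells and at 2.29 to 6.06 CPM in Pdgfra cells. Its log2 difference was 7.64 ± 0.144 (adjusted p = 2.6e-11) against the former and 6.25 ± 0.152 (adjusted p = 6.96e-12) against the latter. All 4 tested transcripts of the *Dlx* family were higher in each comparison, with medians of 7.02 and 6.75, among them *Dlx1as*, which overlaps *Dlx1* on the other strand and may share its reads. The comparison cells had been chosen with *Dlx1* and *Dlx2* at 0, so these values are in part a matter of that choice. Of the 5 genes of GABA synthesis and transport, 3 were higher and 2 lower than in Slc1a3/Aldoc cells, among the latter *Abat*, which encodes the enzyme that breaks GABA down (-0.80), and 4 were higher and 1 lower than in Pdgfra cells. Of the genes of the medial and caudal eminences, 5 of 12 were higher and 3 lower than in Slc1a3/Aldoc cells, and 4 of 10 were higher and 1 lower than in Pdgfra cells. Neuroblast and neuron genes were higher in 17 of 19 cases against Slc1a3/Aldoc cells (median 2.05) and in 13 of 19 against Pdgfra cells (median 1.80). *Stmn2*, a microtubule regulator of growing neurites, was at 460 to 650 CPM in the members and at most 10.9 CPM in either other group.

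Transit-amplifying genes set the members apart less evenly. *Insm1* was higher than in Slc1a3/Aldoc and in Pdgfra cells, by 2.86 and 5.88 on the log2 scale. *Egfr* was lower than in Slc1a3/Aldoc cells (-1.21) and higher than in Pdgfra cells (1.64). Of the 15 transit-amplifying genes, 6 were higher and 5 lower than in Slc1a3/Aldoc cells, and 9 were higher and 3 lower than in Pdgfra cells. Of 15 neural stem cell and radial glia genes, 14 were lower than in Slc1a3/Aldoc cells (median -2.03). *Tnc*, an extracellular matrix gene of stem cells (-3.64), *Id3* (-3.42) and *Fabp7*, a fatty acid binding protein gene of radial glia (-3.19), were lower. *Hes1* and *Hes5*, the Notch targets, were lower (-3.35 and -1.99). The Slc1a3/Aldoc cells had been chosen with *Slc1a3* and *Aldoc* present, so these values are in part a matter of that choice. Against Pdgfra cells, 7 of the 15 stem cell and radial glia genes were higher and 5 lower (median 0.17).

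Cyclin D usage differed between the dividing cells. *Ccnd2*, which encodes cyclin D2, was at 3129, 3463, 3609 and 3986 CPM in the members of control replicate 1, mutant replicate 1, control replicate 2 and mutant replicate 2. It was at 816, 848, 1341 and 1448 CPM in Slc1a3/Aldoc cells and at 115, 165, 317 and 324 CPM in Pdgfra cells. The 3 groups did not overlap, and the members were highest (1.78 ± 0.12, adjusted p = 2.81e-07, and 4.12 ± 0.174, adjusted p = 5.28e-10). *Ccnd1*, which encodes cyclin D1, ran the other way, at 57.4, 49.7, 75.9 and 32.4 CPM in the members, 160 to 182 CPM in Slc1a3/Aldoc cells and 372 to 457 CPM in Pdgfra cells (-1.54 ± 0.135, adjusted p = 2.25e-06, and -2.77 ± 0.152, adjusted p = 6.85e-09). Of 19 cyclins, kinases and inhibitors, 12 were higher and 3 lower in the members than in Slc1a3/Aldoc cells, and 12 were higher and 5 lower than in Pdgfra cells. *Cdkn1a*, the p21 inhibitor and a p53 target, was at 82.4, 72.2, 89.5 and 76.6 CPM in the members against 10.9, 9.92, 13.7 and 11.3 CPM in Pdgfra cells (2.80 ± 0.129, adjusted p = 1.23e-09).

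S-phase genes were higher in the members than in either group of dividing cells. Against Slc1a3/Aldoc cells 32 of 43 were higher and 0 lower (median 0.50), and against Pdgfra cells 37 of 43 were higher and 0 lower (median 0.68), each of them in all 4 libraries. *Cdca7*, whose promoter is printed above, was at 298, 361, 351 and 427 CPM in the members, at 49.3 to 59.7 CPM in Slc1a3/Aldoc cells and at 21.8 to 27.8 CPM in Pdgfra cells. The difference was 2.78 ± 0.0855 (adjusted p = 1.02e-09) and 3.84 ± 0.103 (adjusted p = 1.28e-11), the members being above both groups in each library. *Rrm2* rose by 1.05 and 1.54. Of the 52 G2/M genes, 38 were higher and 0 lower than in Slc1a3/Aldoc cells (median 0.42). Against Pdgfra cells 12 were higher and 15 lower (median -0.05), shares near the 26.6% and 28.5% of all genes. *Hmgb2* was higher than in both (0.77 and 1.14), *Ube2c* was higher than in Slc1a3/Aldoc cells (0.87) and differed by 0.10 from Pdgfra cells (adjusted p = 0.402), and *Cenpf*, a kinetochore gene, was lower than in Pdgfra cells (-0.72). All 3 groups were chosen by the same *Mki67* and *Top2a* count. The median UMI count of the Slc1a3/Aldoc cells was above that of the members in each library. After thinning, cells with more S-phase than G2/M UMIs were 17.9%, 16.7%, 18.7% and 19.3% of Slc1a3/Aldoc cells. They were 15.9%, 25.0%, 18.9% and 17.5% of Pdgfra cells. In the members they were 19.4%, 19.8%, 17.3% and 14.0% (control replicate 1, mutant replicate 1, control replicate 2, mutant replicate 2). By this share the members were below both groups in replicate 2.

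Several genes of the other lineages were low in the members, although *Slc1a3*, which chose the Slc1a3/Aldoc cells, was found in 49.3%, 49.0%, 62.7% and 48.8% of thinned members (control replicate 1, mutant replicate 1, control replicate 2, mutant replicate 2), against 20.97% to 31.03% of the *C1q*-rich cells. The Pdgfra cells had been chosen with *Pdgfra* present and the members with it at 0, so the values against them are in part a matter of that choice. *Lhfpl3*, a marker of oligodendrocyte precursors, was at 8.83, 13.9, 3.89 and 4.42 CPM in the members of control replicate 1, mutant replicate 1, control replicate 2 and mutant replicate 2 against 3376, 3135, 819 and 658 CPM in Pdgfra cells (-7.96 ± 0.16, adjusted p = 3.33e-12). *Sox10*, a factor of the whole oligodendrocyte lineage, was at 0.192 to 3.31 CPM in the members against 214 to 259 CPM (-6.62 ± 0.249, adjusted p = 1.76e-10). *Tnr*, a matrix gene (-6.41), and *Cspg4*, which encodes the NG2 proteoglycan (-7.11), were lower by like amounts. Against Slc1a3/Aldoc cells, *Grm3*, a glutamate receptor gene (-3.60), *Serpinf1* (-3.92) and *Ccdc80* (-3.95) were among the genes with the largest fall. The choice of those cells by *Slc1a3* and *Aldoc* has a part in these values too.

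Within the members, genes also varied from cell to cell, which is given as a description without tests. After thinning to 5000 UMIs, among members with a *Dcx* UMI, 84.5%, 79.9%, 81.5% and 61.8% held *Gad2* (control replicate 1, mutant replicate 1, control replicate 2, mutant replicate 2), against 42.7%, 27.8%, 19.0% and 0% of those without *Dcx*. Few members lacked *Dcx* in replicate 2. Of these, 4 held *Gad2* and 17 did not in the control library, against 0 and 9 in the mutant library. *Gad2* was thus the more frequent in *Dcx* cells of each library, on small numbers in replicate 2.

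The comparison of genotypes asked whether *Chd8* mutation changed the number or the RNA of these cells. *Chd8* itself (mm10 chr14:52198151-52257780, - strand) was at 77.2 CPM (402 UMIs) in the members of control replicate 1 and 74.6 CPM (338 UMIs) in mutant replicate 1, and at 108 CPM (111 UMIs) and 122 CPM (83 UMIs) in control and mutant replicate 2. The genotypes overlapped (0.04 ± 0.363 on the log2 scale, mutant minus control, unadjusted p = 0.915, edgeR). The libraries count the 3' ends of transcripts, and the floxed part was not located here, so the level of *Chd8* does not check the genotype. The members made up 5.11% of kept cells in control replicate 1 (95% interval 4.56% to 5.72%, exact Clopper-Pearson, counting error alone), 4.72% in mutant replicate 1 (4.18% to 5.30%), 2.52% in control replicate 2 (1.99% to 3.15%) and 1.37% in mutant replicate 2 (1.002% to 1.83%). The intervals overlap in replicate 1 and not in replicate 2. The share was lower in the mutant within each replicate, with differences of -0.396 and -1.15 percentage points. The difference of the means, -0.773 points, turned positive without control replicate 1 (0.522) and without mutant replicate 2 (0.900). At a mitochondrial limit of 5%, the shares were 5.67% and 5.37% in control and mutant replicate 1 and 5.71% and 2.31% in replicate 2. The difference of the means was -1.85 points (p = 0.333, exact permutation). That limit kept 1069 of 2973 cells in control replicate 2 and 1730 of 3281 in mutant replicate 2. At the main limit of 10%, the means were 3.82% ± 1.83 (SD, n = 2) in control and 3.04% ± 2.37 (SD, n = 2) in mutant libraries. The exact permutation test there gave p = 0.667, two-sided, where 4 libraries allow no p under 0.333.

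Of all cells with the *Dlx* count and without the excluded genes, 24.5%, 24.3% and 24.4% were dividing in control replicate 1, mutant replicate 1 and control replicate 2, and 18.4% in mutant replicate 2. Mutant replicate 2 alone lay lower. The means were 24.4% ± 0.0742 in control and 21.4% ± 4.22 in mutant libraries (SD, n = 2), a difference of -3.05 percentage points with p = 0.333 (exact permutation), the smallest p possible. Within replicate 1 the difference was -0.117 points and within replicate 2 -5.98. At a mitochondrial limit of 5% the shares were 24.7% and 24.6% in control and mutant replicate 1 and 37.7% and 20.6% in replicate 2. The difference of the means was then -8.55 points. That limit kept 61 of 75 members in control replicate 2 and 40 of 45 in mutant replicate 2. Of the resting Dlx cells it kept 89 of 194 in control replicate 2 and 130 of 171 in mutant replicate 2. With each cell thinned to 5000 UMIs before the rule was applied, the shares were 23.3% and 22.5% in control and mutant replicate 1 and 31.4% and 16.8% in replicate 2, and the difference of the means was -7.76 points. Cells under 5000 UMIs were left out there, which kept 288 of 292, 263 of 267, 75 of 75 and 43 of 45 members but 719 of 826, 686 of 763, 116 of 194 and 132 of 171 resting Dlx cells (control replicate 1, mutant replicate 1, control replicate 2, mutant replicate 2). Of all dividing cells the members were 30.9% and 26.8% in control and mutant replicate 1 and 10.1% and 6.27% in replicate 2. At a mitochondrial limit of 5% these shares were 31.8%, 28.2%, 17.7% and 8.71% in the same order. The difference of the means was -3.97 points, and -6.34 at that limit. The share of members with more S-phase than G2/M UMIs, given above, differed by -1.53 points (p = 1, exact permutation), with opposite signs within replicate 1 (0.3275) and replicate 2 (-3.38), and by 0.0674 at a mitochondrial limit of 5%.

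**Figure D3:**
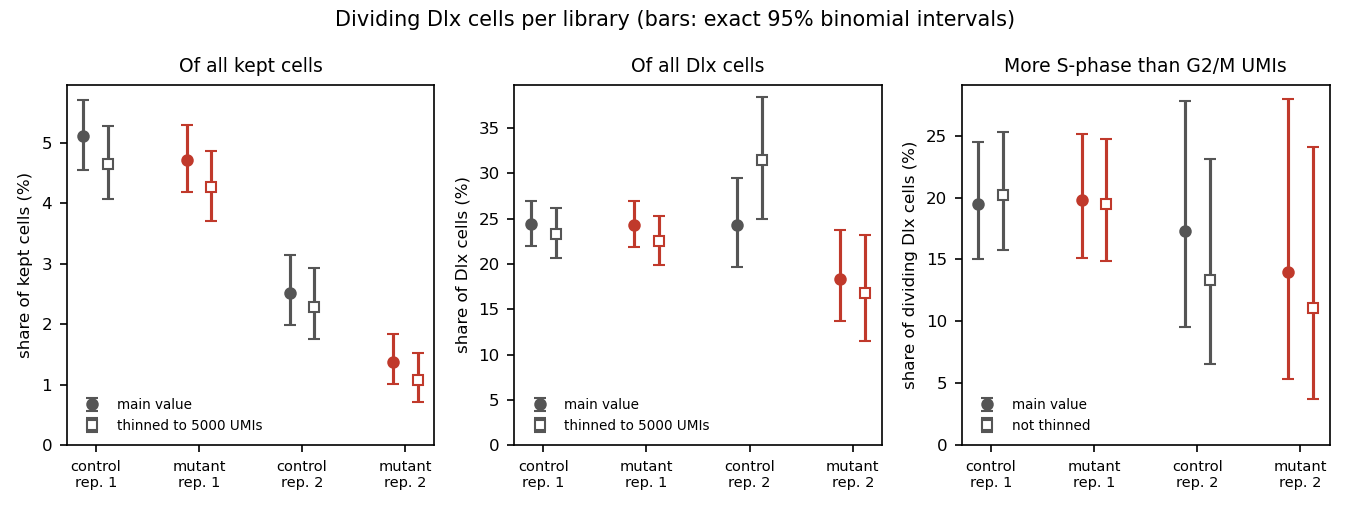
Share of dividing Dlx cells (y axes, percent) of all kept cells, of all Dlx cells, and of those with more S-phase than G2/M UMIs, per library, with exact 95% binomial bars; filled circles are the values of the text and open squares the same with thinning (share of kept and of Dlx cells) or without it (S-phase). Bars of control and mutant replicate 1 overlap in each panel. Those of replicate 2 do not in the first panel nor, for the thinned values of 31.4% and 16.8%, in the second. The bars cover counting error alone and not the spread between libraries.

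No gene passed the test between genotypes, which does not show that genes did not differ. Of 11850 genes tested in the members, 0 (0.00%) were called by edgeR at an adjusted p under 0.05 and 7 had an unadjusted p under 0.05, and DESeq2 called 0, with 12 at an unadjusted p under 0.05. The mutant minus control difference had the same sign in both replicates for 5826 genes (49.2%), and the median standard error was 0.454 on the log2 scale. Without a block the spread between replicates, as edgeR's biological coefficient of variation, was 0.423, and with the replicate number as a block it was 0.166. With the block edgeR called 0 genes as well, with 201 (1.70%) at an unadjusted p under 0.05.

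*Egfr* was at 191 and 125 CPM in the members of control replicates 1 and 2 and at 115 and 51.6 CPM in those of mutant replicates 1 and 2. It was lower in the mutant within both replicates, with differences of -0.73 and -1.26 on the log2(CPM + 1) scale. A difference of the same sign in both replicates was seen for 49.2% of all genes tested. The fitted difference of *Egfr* was -0.91 ± 0.491 (unadjusted p = 0.121, edgeR). With the replicate as a block its unadjusted p was 0.0004 (edgeR), which did not pass after adjustment (adjusted p = 0.999966). *Egfr* rested on 35 UMIs in mutant replicate 2. Of the 15 transit-amplifying genes, 3 had a positive fitted difference, with a median of -0.21 over the list (-0.03 within replicate 1 and -0.51 within replicate 2), against -0.01 over all genes tested, and 7 of the 15 had the same sign in both replicates. The 5 tested oligodendrocyte lineage markers all had a positive fitted difference, with a median of 0.51 (0.40 within replicate 1 and 0.59 within replicate 2). Of these, 3 had the same sign in both replicates. The 2 tested vascular and meningeal markers had a median of 1.31 (1.88 and 0.39), 1 of them positive. The median was 0.33 (-0.58 and 1.44) for 6 ependymal and choroid plexus markers and 0.13 (-0.06 and 0.13) for 8 astrocyte markers. It was -0.44 (-0.92 and 0.55) for 2 microglia and macrophage markers. The part of all these markers in the values above was not tested.

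Neuroblast and neuron genes had a median difference of 0.20, with 15 of 20 positive, but the median was -0.01 within replicate 1 and 0.43 within replicate 2. *Dcx* was at 427 and 417 CPM in control replicates 1 and 2 and at 460 and 538 CPM in the mutants, a difference of 0.11 and 0.37 within replicates 1 and 2. *Gad1* differed by 0.15 and -0.01, *Gad2* by -0.09 and 0.05 and *Ccnd2* by 0.15 and 0.14. *Cdkn1b*, the p27 inhibitor that holds cells out of the cycle, was lower in both mutant libraries than in the control of the same replicate (-0.17 and -0.75). Its list of 19 cyclins, kinases and inhibitors had a median of -0.13 (-0.01 and -0.11 within replicates 1 and 2). Of the 19, 7 had a positive fitted difference and 9 had the same sign in both replicates. The S-phase genes had a median of -0.05 (0.05 and -0.10 within replicates 1 and 2) and the G2/M genes of -0.10 (-0.11 and -0.04). *Nrxn3*, *Auts2* and *Gphn* differed by -0.07, -0.16 and -0.21 in replicate 1 and by 0.22, 0.08 and -0.94 in replicate 2, where *Gphn* rested on 33 and 11 UMIs. None of these genes passed the test.

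**Figure D4:**
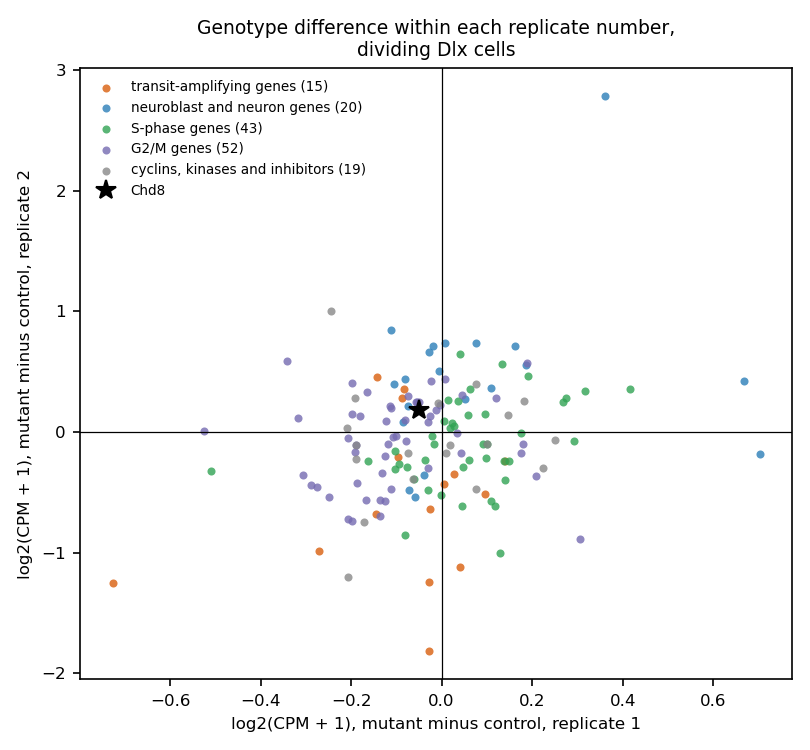
Mutant minus control difference in log2(CPM + 1) within replicate 1 (x axis) and within replicate 2 (y axis) for the genes of 5 lists in dividing Dlx cells, each point a gene, and *Chd8* as a star. The y axis spans a wider range than the x axis, *Egfr* is the point furthest left at -0.73 and -1.26, and *Chd8* lies at -0.05 and 0.18.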

How the data were processed

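Single-cell 3' libraries (10x Genomics v3.1, input of 5000 cells) were made from sorted cells, 2 per genotype. The authors mapped reads to mm10 with Cell Ranger and deposited raw UMI counts for 32285 genes and each barcode. Versions 7.0.0 and 5.0.1 stood in the headers, and 3.0 in the submitters' processing notes. Gene positions came from GENCODE vM21 (99.6% of genes) and promoters from RefSeq GRCm38.p6.

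The members and gene lists were chosen with earlier results of these data known. Member counts were summed per library. After filterByExpr and TMM scaling, edgeR 4.0.16 (R 4.3.3, limma 3.58.1) gave quasi-likelihood p-values and changes with a prior count of 2. Adjustment was by Benjamini-Hochberg over all genes tested, and genes were called under 0.05. Groups of cells were compared over 8 sums with library and cell group as terms. Fits were tested on simulated data, where fewer of the changes between genotypes were recovered than of those between groups of cells. Without the block none of the changes between genotypes was recovered. Shares were compared by exact permutation over 6 assignments. Thinning drew 5000 UMIs per cell (288, 263, 75 and 43 members had that many in control replicate 1, mutant replicate 1, control replicate 2 and mutant replicate 2). *C1q*-rich cells had at least 10 *C1q* UMIs. Scrublet ran in scanpy 1.11.5 (Python 3.11.15) at a rate of 0.05.

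Same-numbered libraries deviated together from their group means (r = 0.690 over 11850 genes, across genes, which are not independent). The labels give a number alone and there are 2 pairs, so the replicate block was an alternative. The genes named are those of the rule, *Chd8*, *Xist*, members of the lists and, between groups of cells, up to 10 each way with the largest change among called genes at 50 CPM or more that changed the same way in all 4 libraries. The study tested cells as replicates, which was not done here. Some genes of the lists are counted and not reported by name here.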

Additional observations from a re-analysis of the deposited data

How the results depend on the processing

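The replicates stood apart, and depth limits replicate 2, where 75 and 45 members carried 1027845 and 678440 UMIs. Between genotypes, edgeR called 0 genes with each library left out in turn (a lone library being assumed to vary like those of the other genotype), which says nothing about stability, and 0 with the replicate block, under which the shares differed by the same -0.773 and -3.05 points. Without a filter on low counts it called 16 genes, 15 of them lower in the mutant, and of the 16 genes 8 were at 0 in at least 1 library and 8 had been tested with the filter. The library deviations of the block are given with the processing, and the cause of the 16 calls was not tested.

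Leaving out each library moved the difference in the share of kept cells from -2.45 to 0.900 points, positive without control replicate 1 (0.522) and without mutant replicate 2 (0.900). The share of Dlx cells moved from -6.04 to -0.0640. The share with more S-phase UMIs moved from -4.44 to 1.38, positive without mutant replicate 2 (1.38), and was 0.0674 at a mitochondrial limit of 5%. At that limit the share of Dlx cells differed by -8.55, with the unequal losses of resting Dlx cells in replicate 2 given above.

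The counts of genes called between cell groups were 6546 (resting), 7053 (Slc1a3/Aldoc) and 6387 (Pdgfra). Leaving out a library gave 4271 to 6701, 5342 to 7247 and 5041 to 6377, the lowest resting count being without control replicate 1. Without the library term they fell to 2389, 3393 and 3534. With at least 10 counts in every sum, fewer genes were tested and 4450 (Slc1a3/Aldoc) and 4136 (Pdgfra) were called. DESeq2, thinned cells, removal of marked doublets, a rule of 5 UMIs and no filter kept these counts within 1.5 times. No replicate block was needed for these comparisons, which hold the library as a term.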
